A study of Saccharomyces cerevisiae with 12 samples.

Results

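Unprecipitated input DNA of budding yeast (Saccharomyces cerevisiae) carrying the Pcf11-13 allele was compared with that of cells carrying wild-type PCF11 (WT), gene by gene, for gene copy, plasmid genes, repeats and chromosome dosage. The 4 libraries were chosen by their column names, 2 of Pcf11-13 input and 2 of WT input, out of 12 libraries in the series. The 2 input libraries of a further allele, Pcf11-DNL, shared the fit and are given beside them, and the remaining 6 libraries measured RNA polymerase II (Pol II) by chromatin immunoprecipitation. The files list 6650 genes, and the 6643 that reached a coverage of 10 in 2 or more input libraries were tested.

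All 3 genotypes were W303 cells of mating type alpha, grown in glucose, with ura3-1, trp1-delta, ade2-1 and his3-11,15. The chromosomal PCF11 was deleted and marked as pcf11-delta::TRP1 in every group, WT included, so that PCF11 came from a LEU2 plasmid based on pRS325. That plasmid is labelled pRS325-LEU2-pcf11-13 in the Pcf11-13 cells, pRS325-LEU2--V5-pcf11-deltaN-linkMYC in the Pcf11-DNL cells and pRS325-LEU2-V5-PCF11-MYC in the WT cells. The labels give V5 and MYC tags for the Pcf11-DNL and WT plasmids and none for the Pcf11-13 plasmid. All cells also carried a mutant leu2 allele of the leu2-3 type, spelled alike in the labels of Pcf11-13 and WT cells and as leu2-3,12 in those of Pcf11-DNL cells. Each group had 2 libraries, which the labels call biological replicates. Whether each strain was 1 clone is not stated, so differences from the allele and from other differences between the strains cannot be told apart. Mean coverage per gene was 169.6 and 150.2 in the Pcf11-13 libraries, 189.1 and 132.3 in the Pcf11-DNL libraries, and 157.7 and 175.2 in the WT libraries.

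Input is chromatin that was crosslinked and sheared but not immunoprecipitated, and it serves as the DNA background of a chromatin immunoprecipitation. Its coverage follows the number of copies of a sequence per cell, so plasmid genes, tandem repeats and gained chromosomes stand out from genes present in a single copy. Pcf11 is an essential subunit of cleavage factor IA, which acts in 3′ end processing of pre-mRNA and in termination by Pol II. Vectors of the pRS325 type carry the origin of the yeast 2-micron plasmid and are kept at several copies per cell. The metallothionein gene CUP1 and the ribosomal DNA are the classical tandem arrays of this yeast, and both change in repeat number between strains.

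Values are given as levels, the coverage of a gene divided by that of the median gene of the same library, so that a gene in a single copy lies near 1. Changes are log2 differences of Pcf11-13 minus WT from limma, fitted to the 6 input libraries, and a gene counts as called where its p-value, adjusted over all 6643 genes after Benjamini and Hochberg, was under 0.05. Between Pcf11-13 and WT, 17 genes were called, which is 0.256% of those tested. Of these, 8 were higher (0.12%) and 9 were lower (0.135%). At an unadjusted p under 0.05 there were 384 genes (5.78%). Pcf11-13 set against Pcf11-DNL also gave 17 called genes (0.256%), 7 of them higher (0.105%) and 10 lower (0.151%). Without adjustment, 379 genes had a p under 0.05 (5.71%). The comparisons share the Pcf11-13 libraries, and 16 genes were called in both. Pcf11-DNL minus WT gave 0 called genes, with 232 at an unadjusted p under 0.05 (3.49%), and no other tool was run. In each of the 17 genes both Pcf11-13 libraries lay beyond both WT and both Pcf11-DNL libraries, as they did at 14.8% of all genes tested, but the 17 were called on these same libraries and this is a description only. Regardless of call, both Pcf11-13 libraries lay above both WT libraries at 16.9% of genes and below them at 16.7%.

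**Figure D1:**
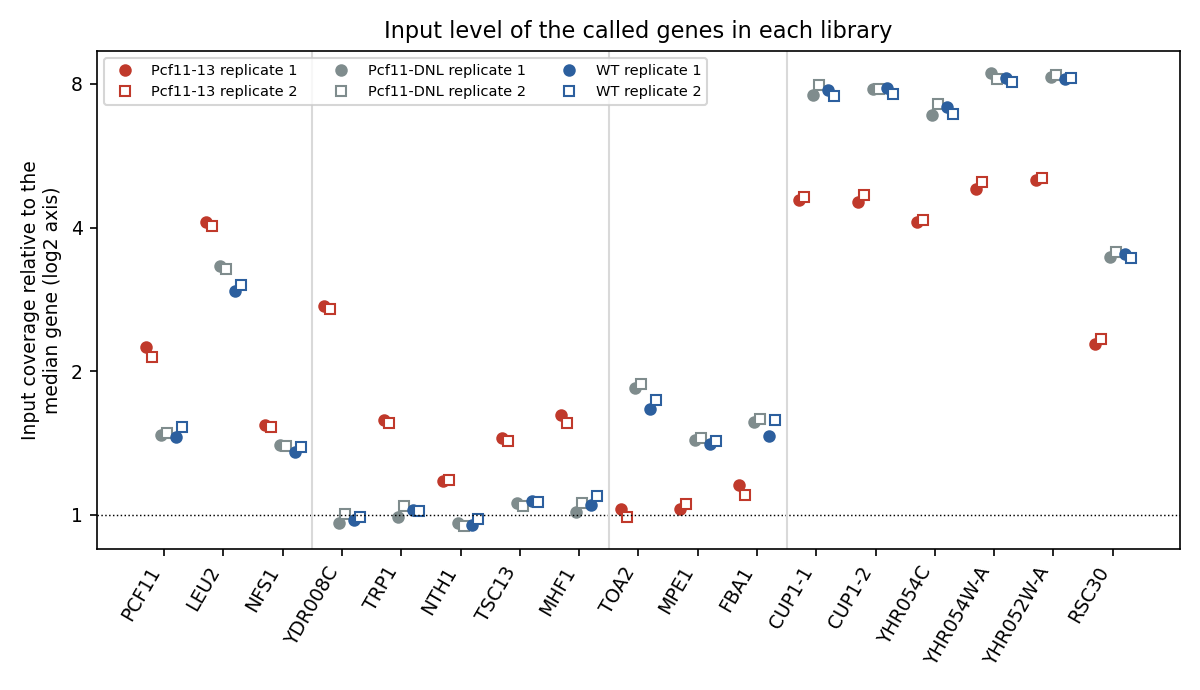
Input coverage of the 17 called genes relative to the median gene (log2 axis), 1 point per library, with Pcf11-13 in red, Pcf11-DNL in grey and WT in blue; the dotted line marks the median gene. The Pcf11-13 points lie above the others from PCF11 to MHF1 and below them from TOA2 to RSC30; at YDR008C they lie at 2.74 and 2.70, and at TOA2 at 1.03 and 0.990.

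The genes of the plasmid were higher in Pcf11-13 cells. PCF11 itself (YDR228C, chromosome IV, 921926 to 923806) had levels of 2.24 and 2.14 in Pcf11-13 libraries, 1.47 and 1.49 in Pcf11-DNL libraries, and 1.45 and 1.53 in WT libraries. The Pcf11-13 libraries were both above the other 4, and those 4 overlapped. Mean levels were 2.19 ± 0.0721 in Pcf11-13 and 1.49 ± 0.0519 in WT (SD, n = 2 each), a ratio of 1.47. The change was 0.56 (SE 0.03), with an adjusted p of 0.000227 in limma. The genes next to it on the chromosome, SIR4, of the silencing complex, at 279 bp and IVY1, of the vacuole membrane, at 979 bp, had changes of -0.01 and 0.00 and were not called.

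LEU2 encodes 3-isopropylmalate dehydrogenase of leucine synthesis and is the marker gene of the plasmid. This gene (YCL018W, chromosome III, 91324 to 92418) had levels of 4.11 and 4.03 in Pcf11-13 libraries, 3.32 and 3.27 in Pcf11-DNL libraries, and 2.95 and 3.04 in WT libraries. The 3 genotypes did not overlap. The change between Pcf11-13 and WT was 0.44 (SE 0.02, limma adjusted p = 0.000103), a ratio of mean levels of 1.36. Pcf11-DNL minus WT was 0.14 at LEU2 and was not called.

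The chromosomal leu2 alleles named in the labels are mutant but leave most of the reading frame in place, so a LEU2 level holds chromosomal and plasmid DNA, while a PCF11 level in these deletion strains does not have an intact chromosomal copy beside it. The LEU2 level less 1 was 3.11 and 3.03 in Pcf11-13, 2.32 and 2.27 in Pcf11-DNL, and 1.95 and 2.04 in WT. In this form the ratio of means between Pcf11-13 and WT was 1.54, against 1.47 at PCF11. The level of LEU2 divided by that of PCF11 was 1.83 and 1.88 in Pcf11-13, 2.26 and 2.20 in Pcf11-DNL, and 2.03 and 1.99 in WT, so that each genotype kept its own narrow range. The extent to which the deletion and the plasmid alleles cover the PCF11 reading frame is not given in the sources used here, and these levels are therefore not plasmid copy numbers.

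NFS1, a cysteine desulfurase that provides sulfur for iron-sulfur clusters, lies 359 bp from LEU2 (YCL017C, chromosome III, 92777 to 94270). It had levels of 1.54 and 1.53 in Pcf11-13 libraries, 1.40 and 1.39 in Pcf11-DNL libraries, and 1.35 and 1.38 in WT libraries, above the median gene in all 6. The change was 0.17 (SE 0.02, limma adjusted p = 0.0471). The call was lost under 12 of the 17 alternative settings, and the change stayed between 0.13 and 0.18. On the other side of each, DCC1 (0.01) and the Ty reading frame YCL019W (0.01) were not called.

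The other markers named in the genotypes, other than TRP1, were at the level of chromosomal genes in every group. URA3, of uracil synthesis, had a change of -0.01, HIS3, of histidine synthesis, of -0.03 and ADE2, of adenine synthesis, of 0.00, each with a limma adjusted p of 0.999. HIS3 lay below the median gene in all 6 libraries, at 0.835 and 0.824 in Pcf11-13, 0.906 and 0.839 in Pcf11-DNL, and 0.843 and 0.859 in WT.

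TRP1, phosphoribosylanthranilate isomerase of tryptophan synthesis, marks the PCF11 deletion in all 3 genotypes but was higher in Pcf11-13 alone. TRP1 (YDR007W, chromosome IV, 461842 to 462516) had levels of 1.58 and 1.55 in Pcf11-13 libraries, 0.990 and 1.04 in Pcf11-DNL libraries, and 1.02 and 1.02 in WT libraries. The change was 0.62 (SE 0.03, limma adjusted p = 9.58e-05). The reading frame YDR008C, annotated as dubious and overlapping TRP1, had the largest change of all called genes. Its levels were 2.74 and 2.70 in Pcf11-13 libraries, 0.962 and 1.00 in Pcf11-DNL libraries, and 0.975 and 0.992 in WT libraries, a change of 1.46 (SE 0.03, limma adjusted p = 8.46e-07). The level in Pcf11-13 therefore differed between the overlapping reading frames, whereas in Pcf11-DNL and WT both lay near 1. All cells are labelled trp1-delta and pcf11-delta::TRP1, so reads placed on these frames need not come from the native TRP1 locus. Their source was not tested. The neighbours of TRP1 in the reference, SOK1 (595 bp away, -0.01) and GAL3, an activator of the galactose pathway (918 bp away, 0.01), were not called.

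NTH1, the neutral trehalase (YDR001C, 450220 to 452475), was a further gene of chromosome IV with a higher level. In the reference it is the first gene to the right of the centromere. NTH1 levels were 1.18 and 1.18 in Pcf11-13 libraries, 0.962 and 0.947 in Pcf11-DNL libraries, and 0.954 and 0.980 in WT libraries. The change was 0.29 (SE 0.03, limma adjusted p = 0.0037), and without WT replicate 1 it was 0.27 and not called (adjusted p = 0.0743). RMD1, across the centromere at 944 bp, had a change of -0.01, and YRB1, a Ran-binding protein gene at 570 bp, of 0.02. NTH1 thus stood between genes that were not called.

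TSC13 encodes the enoyl reductase of very long chain fatty acid synthesis (YDL015C, chromosome IV, 426002 to 426934). It stood at 1.45 and 1.43 in Pcf11-13 libraries, 1.06 and 1.04 in Pcf11-DNL libraries, and 1.07 and 1.06 in WT libraries. The change was 0.43 (SE 0.02, limma adjusted p = 0.000158). CDC7, the replication kinase gene 270 bp to its left, had a change of 0.00, and NOP1, the fibrillarin gene 430 bp to its right, of 0.02.

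MHF1, a histone-fold subunit of a complex that acts with the Mph1 helicase (YOL086W-A, chromosome XV, 159173 to 159445), had levels of 1.62 and 1.55 in Pcf11-13 libraries, 1.02 and 1.06 in Pcf11-DNL libraries, and 1.05 and 1.09 in WT libraries. The change was 0.56 (SE 0.03, limma adjusted p = 0.000303). ADH1, the main alcohol dehydrogenase of fermentation, lies 103 bp from it and had levels of 1.21 and 1.14 in Pcf11-13, 1.09 and 1.10 in Pcf11-DNL, and 1.01 and 1.11 in WT. Its change of 0.14 was the largest among the flanking genes that were not called, with a limma adjusted p of 0.80.

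Leaving out neighbours that were themselves called, such as NFS1 beside LEU2, 16 genes lay next to a called gene with coordinates. Their changes ran from -0.02 at NUP120 to 0.14 at ADH1. With 1 value per gene, the edges of a gain or loss inside a gene or between genes cannot be placed. Coverage is placed on the reference, and where extra copies lie in the cells was not tested.

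**Figure D2:**
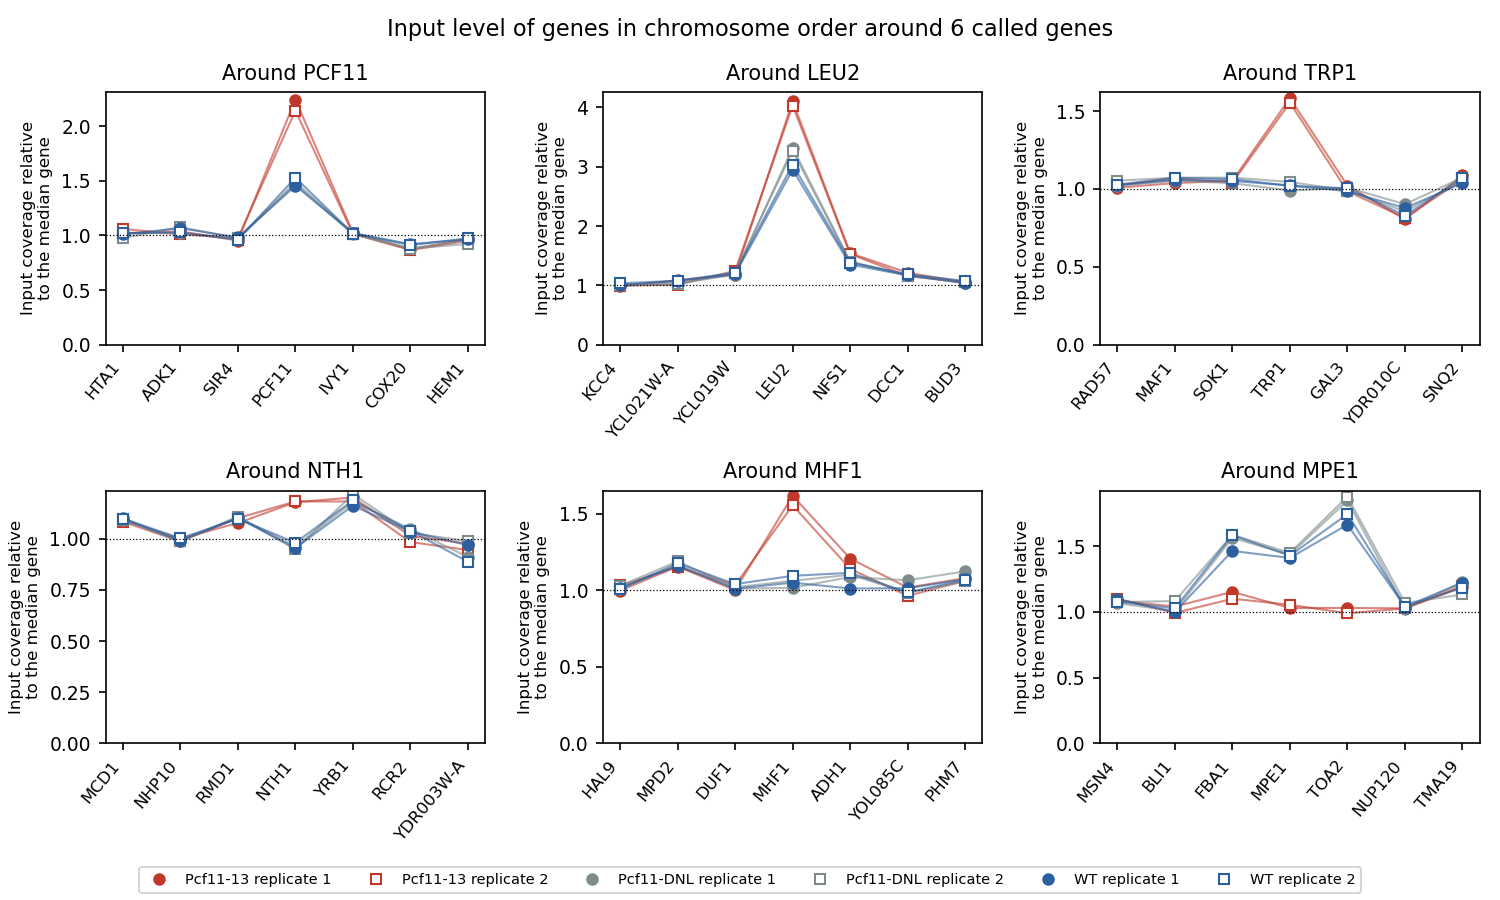
Input coverage relative to the median gene (linear axes from 0) for 7 genes in chromosome order around PCF11, LEU2, TRP1, NTH1, MHF1 and MPE1, 1 line per library, with Pcf11-13 in red, Pcf11-DNL in grey and WT in blue. In the first 5 panels the red points stand above the others at the central gene, and at NFS1 beside LEU2, while in the panel around MPE1 the red points stay near 1 at 3 genes, FBA1, MPE1 and TOA2, where the grey and blue points stand higher.

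On chromosome XI, 3 consecutive genes were lower in Pcf11-13 cells. There the Pcf11-13 libraries were at the level of the median gene, and the Pcf11-DNL and WT libraries stood above it. TOA2, the small subunit of the general transcription factor TFIIA (YKL058W, 330166 to 330534), had levels of 1.03 and 0.990 in Pcf11-13 libraries, 1.85 and 1.88 in Pcf11-DNL libraries, and 1.66 and 1.74 in WT libraries. The change was -0.75 (SE 0.03, limma adjusted p = 3.47e-05).

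MPE1, a subunit of the cleavage and polyadenylation factor (YKL059C, 328118 to 329443), had levels of 1.03 and 1.05 in Pcf11-13 libraries, 1.43 and 1.45 in Pcf11-DNL libraries, and 1.41 and 1.43 in WT libraries. The change was -0.44 (SE 0.02, limma adjusted p = 0.000103). FBA1, the aldolase of glycolysis (YKL060C, 326408 to 327487), had 1.15 and 1.10 in Pcf11-13 libraries, 1.56 and 1.59 in Pcf11-DNL libraries, and 1.46 and 1.58 in WT libraries. Its change was -0.43 (SE 0.04, limma adjusted p = 0.0051). At each of the 3 genes both Pcf11-13 libraries were below the other 4. On the outer sides, BLI1, 296 bp from FBA1, had a change of 0.01 and NUP120, a nuclear pore gene 322 bp from TOA2, of -0.02.

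The CUP1 locus on chromosome VIII was lower in Pcf11-13 cells. CUP1 encodes the copper-binding metallothionein, and the reference holds 2 near-identical copies of a unit that strains carry in different numbers. CUP1-1 (YHR053C, 212535 to 212720) had levels of 4.56 and 4.64 in Pcf11-13 libraries, 7.58 and 7.95 in Pcf11-DNL libraries, and 7.76 and 7.56 in WT libraries. CUP1-2 (YHR055C, 214533 to 214718) had 4.53 and 4.69 in Pcf11-13 libraries, 7.80 and 7.81 in Pcf11-DNL libraries, and 7.84 and 7.61 in WT libraries. The copies cannot be told apart by reads of their shared sequence. Summed, they came to 9.21 ± 0.165 in Pcf11-13, 15.6 ± 0.262 in Pcf11-DNL and 15.4 ± 0.312 in WT (SD, n = 2 each), a ratio of Pcf11-13 to WT of 0.599.

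The change was -0.73 (SE 0.03, limma adjusted p = 2.09e-05) at CUP1-1 and -0.74 (SE 0.02, limma adjusted p = 1.51e-05) at CUP1-2. Other reading frames of the unit moved by like amounts, with -0.70 at YHR052W-A, -0.77 at YHR054C (213185 to 214249) and -0.73 at YHR054W-A. RSC30, a subunit of the RSC chromatin remodeller (YHR056C, 215183 to 217834), stands at the edge of the array and had levels of 2.28 and 2.34 in Pcf11-13 libraries, 3.47 and 3.55 in Pcf11-DNL libraries, and 3.51 and 3.46 in WT libraries. Its change was -0.59 (SE 0.02, limma adjusted p = 2.09e-05). Outside the unit the level returned to the median gene, with 1.02 and 0.985 in Pcf11-13, 0.963 and 0.974 in Pcf11-DNL, and 0.967 and 0.966 in WT at CIC1. CIC1 (0.05) and CPR2, a cyclophilin gene (0.04), were not called.

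Of 7 genes listed for the CUP1 locus, RSC30 and CIC1 included and YHR052W-A not, 5 were called lower and 0 higher. Over all genes tested these shares were 0.135% and 0.12%. The 5 lie in or at the edge of the same array, so their calls are not independent of each other. The remaining pair, CIC1 and YHR056W-A (-0.07), lay near the median gene in all 6 libraries. The list had a median change of -0.73, against a median of 0.00 over all genes tested. Under quantile normalization, which gives every library the same set of values, CUP1-1, CUP1-2, YHR052W-A, YHR054C and YHR054W-A had changes of -0.03 to -0.13 and none of these 5 was called, while RSC30 and the 3 genes on chromosome XI were still called lower.

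Reading frames inside the ribosomal DNA repeat on chromosome XII had the highest levels of all. Over the 7 frames there, the median level was 83.7 and 80.6 in Pcf11-13 libraries, 94.7 and 92.0 in Pcf11-DNL libraries, and 88.9 and 87.7 in WT libraries. TAR1, encoded antisense to the large ribosomal RNA, had 87.2 and 83.2 in Pcf11-13, 100.3 and 93.1 in Pcf11-DNL, and 90.2 and 90.5 in WT. The Pcf11-13 values were the lowest of the 3 genotypes at TAR1, and the change of -0.08 (SE 0.06, limma adjusted p = 0.968) did not pass. YLR154W-B, the frame of highest level, had a change of -0.08 (adjusted p = 0.99), and YLR154W-F of -0.10 (adjusted p = 0.861). Of 12 listed frames in and beside the repeat 0 were called, beside 0.256% of all genes tested. Their median change was -0.07, against 0.00 over all genes.

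**Figure D3:**
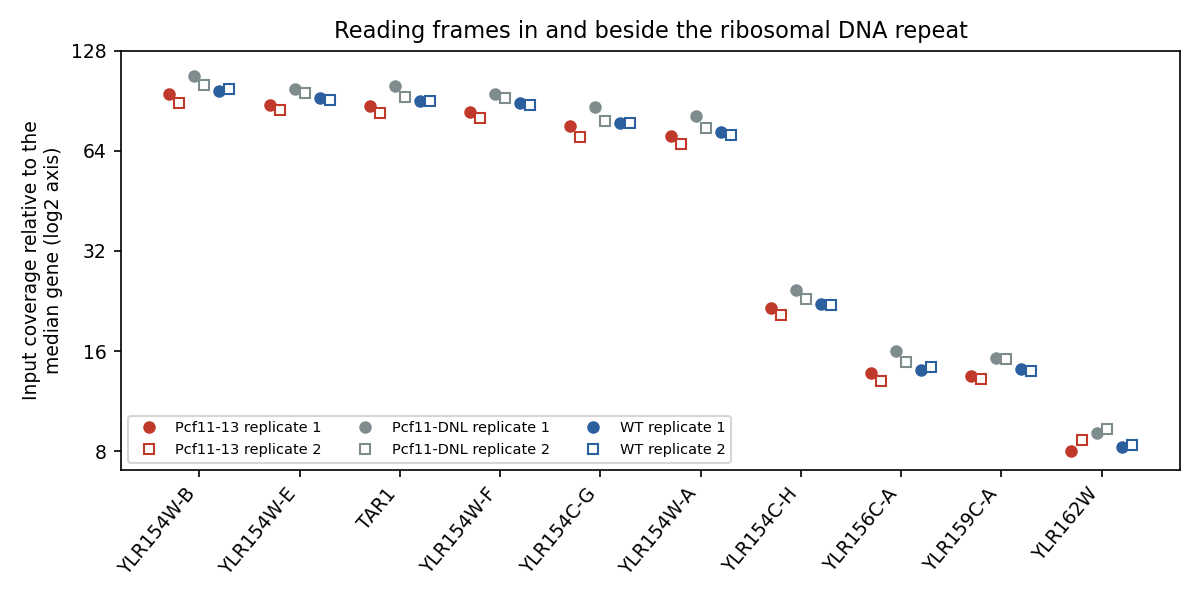
Input coverage relative to the median gene (log2 axis) for reading frames in and beside the ribosomal DNA repeat, 1 point per library, with Pcf11-13 in red, Pcf11-DNL in grey and WT in blue. At TAR1 the red points lie at 87.2 and 83.2 and the blue ones at 90.2 and 90.5, and 0 of the frames shown were called between Pcf11-13 and WT.

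YLR159C-A, in the asparaginase (ASP3) cluster beside the ribosomal DNA, had levels of 13.4 and 13.2 in Pcf11-13 libraries, 15.2 and 15.1 in Pcf11-DNL libraries, and 14.1 and 14.0 in WT libraries. It was called between Pcf11-13 and Pcf11-DNL only (-0.19, limma adjusted p = 0.0308), and Pcf11-13 minus WT was -0.07. Of the 11 genes of the ASP3 cluster 0 were called against WT, beside 0.256% of all genes tested. Their median change was -0.01, with the lowest value at YLR161W (-0.20, limma adjusted p = 0.934). The high level of YLR159C-A was shared by YLR156C-A and not by the ASP3 genes, ASP3-1 to ASP3-4, which lay near the median gene. ASP3-1 had 0.946 and 0.917 in Pcf11-13, 0.930 and 0.914 in Pcf11-DNL, and 0.951 and 0.929 in WT.

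No gene of the dispersed and subtelomeric repeat lists passed the test, beside 0.256% of all genes tested. At that share, lists of these sizes can hold 0 calls without differing from other genes. Of 66 reading frames of Ty retrotransposons in the files, 0 were called, with a median change of 0.00 and a range of -0.05 at YFL002W-A to 0.04 at YER159C-A. The helicase genes of the Y′ subtelomeric element gave 0 of 21 called, a median change of 0.00 and the lowest value at YRF1-3 (-0.12, limma adjusted p = 0.80). Likewise 0 of the 10 tested members of the subtelomeric COS family and 0 of 5 tandem transporter genes were called. Of the transporter genes, ENA1, a sodium pump, had a level of 1.39 and 1.37 in Pcf11-13, 1.38 and 1.37 in Pcf11-DNL, and 1.39 and 1.40 in WT, and HXT7, a hexose transporter, had a change of 0.04. Genes of the native 2-micron circle and of the mitochondrial genome were not analysed here.

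The mating-type genes lay near the median gene in every library. Their sequences are shared with the silent cassettes, so that input alone does not give the mating type. MATALPHA1, the activator of alpha-specific genes, had levels of 1.02 and 0.994 in Pcf11-13, 1.08 and 0.996 in Pcf11-DNL, and 1.03 and 1.04 in WT. HMRA1, of the silent cassette, was also present, at 0.846 and 0.998 in Pcf11-13, 0.999 and 0.938 in Pcf11-DNL, and 0.994 and 0.863 in WT. Of 9 genes of the mating-type and silent loci 0 were called, beside 0.256% of all genes tested. Of the 5 genes of cleavage factor IA and its partner Hrp1, only PCF11 was called, beside 0.256% of all genes tested. RNA14, which encodes a scaffold of that factor, followed with 0.11 (limma adjusted p = 0.80). It lies on chromosome XIII, which was higher as a whole in Pcf11-13 cells, as given below. RNA14 levels were 1.11 and 1.04 in Pcf11-13, 1.00 and 1.03 in Pcf11-DNL, and 1.01 and 0.990 in WT.

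Chromosome XIII was higher than the rest of the genome in Pcf11-13 cells, and by different amounts in the replicates. The median log2 level of its 511 genes was 0.131 and 0.0389 in Pcf11-13 libraries, 0.00559 and 0.0116 in Pcf11-DNL libraries, and 0.00942 and 0.00383 in WT libraries. Set against the WT mean, replicate 1 of Pcf11-13 was higher by 0.124 on the log2 scale, or 8.97%, and replicate 2 by 0.0322, or 2.26%. The mean difference was 0.0781, and it rests mostly on replicate 1. An exact two-sided permutation test of this value gave p = 0.333, the smallest that 2 libraries against 2 allow. The chromosome was named as the highest in these same libraries, so this test could not decide whether it differed. No model was fitted to the chromosome medians.

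The other 15 chromosomes differed from WT by -0.0281 to 0.0115 in single Pcf11-13 libraries. Over all 16 chromosomes the mean of the 2 Pcf11-DNL libraries differed from WT by -0.0159 to 0.0102, a range of means and not of single libraries. Both Pcf11-13 values for chromosome XIII were outside these ranges. The lowest mean was that of chromosome XII (-0.0258), where Pcf11-DNL minus WT was -0.0159.

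**Figure D4:**
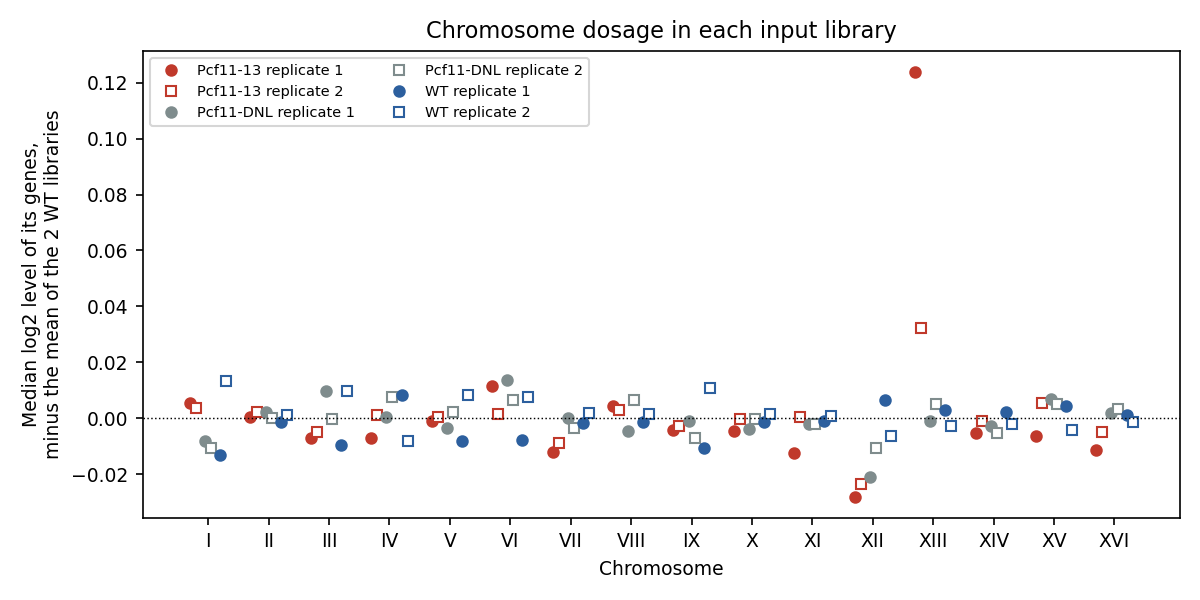
Median log2 level of the genes of each chromosome minus the mean of the 2 WT libraries, 1 point per input library, with Pcf11-13 in red, Pcf11-DNL in grey and WT in blue. Chromosome XIII stands at 0.124 and 0.0322 in the Pcf11-13 libraries, and all other Pcf11-13 points lie between -0.0281 and 0.0115.

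The difference covered the length of chromosome XIII. In 10 blocks of consecutive genes from the left to the right end, the median change from the WT mean was 0.114 to 0.137 in Pcf11-13 replicate 1 and 0.0192 to 0.0448 in replicate 2, above 0 in 10 of 10 blocks in both. The same blocks ran from -0.0149 to 0.0173 in the Pcf11-DNL libraries and from -0.0176 to 0.0176 in the WT libraries. The left arm, with 132 genes, stood at 0.117 in replicate 1 and 0.0249 in replicate 2, and the right arm, with 336 genes, at 0.128 and 0.0297.

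**Figure D5:**
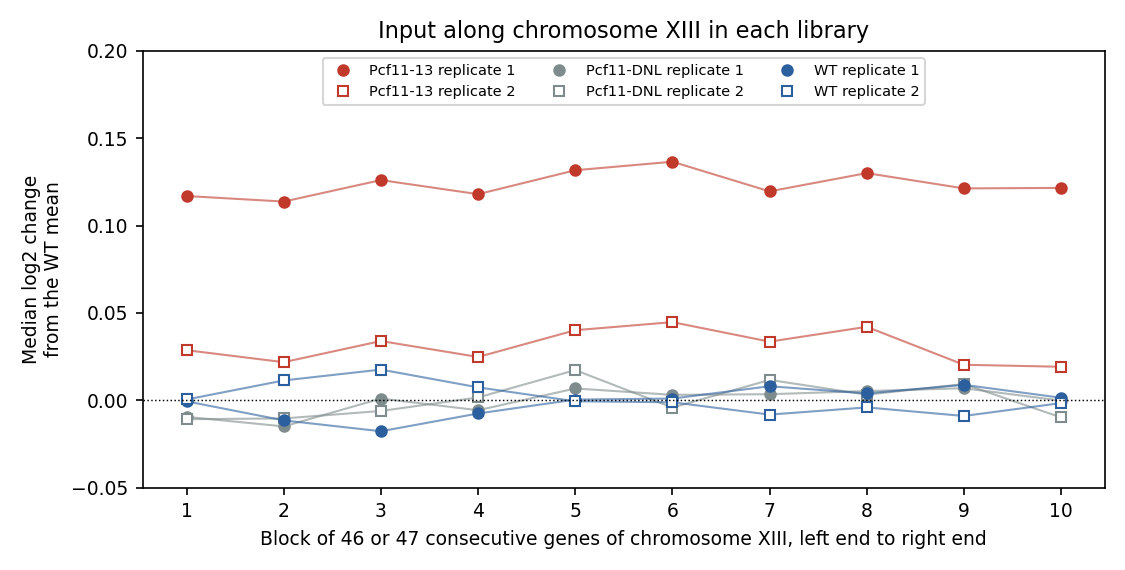
Median log2 change from the WT mean in 10 blocks of consecutive genes along chromosome XIII, 1 line per input library, with Pcf11-13 in red, Pcf11-DNL in grey and WT in blue. Replicate 1 of Pcf11-13 keeps between 0.114 and 0.137 and replicate 2 between 0.0192 and 0.0448 along the whole chromosome, and the Pcf11-DNL and WT lines stay within 0.0176 of 0.

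Gene by gene, Pcf11-13 replicate 1 lay above both WT libraries at 491 of the 511 genes (96.1%), against 25.4% of the 6132 genes elsewhere. For replicate 2 it was 331 genes (64.8%), against 30.9% elsewhere. Both libraries lay above both WT libraries at 327 genes of chromosome XIII (64.0%). On the other chromosomes this share ran from 3.92% (chromosome XII) to 15.4% (chromosome VIII). At an unadjusted p under 0.05, 171 genes of chromosome XIII were higher (33.5%) and 0 lower, against 78 genes higher elsewhere (1.27%). These counts come from the same libraries in which the chromosome stood out, and a shift of a whole chromosome moves its genes together. They restate the difference of its median and are a description only. None of the 511 genes passed the adjusted test in limma, and 0 of the 17 called genes lie on this chromosome.

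The Pol II libraries of the same strains showed a difference of the same sign over chromosome XIII, with median log2 levels 0.0609 and 0.0258 above the WT mean in Pcf11-13 replicates 1 and 2. Other chromosomes ran from -0.0706 to 0.0478 in those libraries, so that only replicate 1 was outside their range. The series text calls the input samples matched to the Pol II samples, so the assays are not independent of each other.

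No window of 10 consecutive genes had a large median change, on chromosome XIII or on any other chromosome. A median over 10 genes can miss a block of a few genes. It did not pick up the stretch from FBA1 to TOA2 on chromosome XI or the CUP1 locus. In 5827 windows of 10 consecutive genes, the median change was above 0.05 in 446, all of them among the 459 windows of chromosome XIII, and below -0.05 in 45. It was beyond 0.2 in 0 windows. The highest window ran from SNZ1 to PGM2 on chromosome XIII (458408 to 477606) with 0.11, and the lowest windows, on chromosome XII around 782174 to 802396, had -0.07. Outside chromosome XIII the highest was on chromosome VIII (371749 to 384488, WSS1 to CHS7) with 0.04.

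Taken over all genes tested, the log2 difference between a single Pcf11-13 library and a single WT library had an SD of 0.0633 to 0.0743. The same SD was 0.0619 between the Pcf11-13 replicates and 0.0545 between the WT replicates. The change was beyond 0.5 in either direction at 11 genes and beyond 0.2 at 34. Genes within 20 kb of a chromosome end had a median change of 0.01 and those within 20 kb of a centromere -0.01. By gene length and by quintile of WT Pol II coverage the medians were all 0.00. The 138 ribosomal protein genes, chosen after their values were seen, had a median of -0.02.

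Some departures from the reference were shared by the genotypes. YAR047C, YGL262W, COS12 and YNR071C were listed at 0 in all 6 input libraries. PDR18, a transporter of the multidrug resistance family on chromosome XIV, had levels of 0.0173 and 0.0179 in Pcf11-13, 0.0178 and 0.0175 in Pcf11-DNL, and 0.0175 and 0.0172 in WT. In the reference, YNR071C lies between PDR18 and HXT17, a hexose transporter gene. HXT17 had 0.172 and 0.164 in Pcf11-13, 0.178 and 0.163 in Pcf11-DNL, and 0.161 and 0.156 in WT. In all, 13 genes had a mean level under 0.35. Of these, 7 did not reach the coverage minimum and were not tested, PDR18 and the genes listed at 0 among them, and 0 of the other 6 were called. At the other end, 19 genes had a mean level above 3, and 7 of these were called, beside 0.256% of all genes tested. The 7 were CUP1-1, CUP1-2, the 3 other called reading frames of the CUP1 unit, RSC30 and LEU2. All of them but LEU2 lie at the CUP1 locus, so they are not separate observations, and the ribosomal DNA frames were not called.

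The Pol II libraries, set beside input at the 17 genes, gave changes of the same sign at 16, LEU2 being the exception. Pol II coverage was not divided by input, so a difference in copies enters both assays. Several of the 17 also share the CUP1 locus or the stretch on chromosome XI. The share of like signs over all genes was not taken. In limma, 2 of the 17 were called in Pol II, against 76 of 6642 genes over the whole table (1.14%). PCF11 had Pol II levels of 6.12 and 6.82 in Pcf11-13 libraries, 1.29 and 1.29 in Pcf11-DNL libraries, and 1.27 and 1.37 in WT libraries, a change of 2.31 that exceeded the input change of 0.56 by 1.75. TOA2 had Pol II levels of 1.26 and 1.28 in Pcf11-13, 2.55 and 2.42 in Pcf11-DNL, and 2.26 and 2.43 in WT. Its Pol II change of -0.86 (adjusted p = 0.00301) stood beside -0.75 in input. At the other genes of that stretch Pol II was not called, with -0.16 at MPE1 (adjusted p = 0.495) beside -0.44 in input and -0.42 at FBA1 (adjusted p = 0.771) beside -0.43.

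At the CUP1 genes the Pol II change, -0.83 at CUP1-1 and -0.86 at CUP1-2, lay below the input change by no more than 0.12 and was not called (limma adjusted p = 0.0632 and 0.0576). The gap was wider at other reading frames of the unit, where Pol II gave -1.13 at YHR054C beside -0.77 in input and -0.87 at YHR054W-A beside -0.73, neither of them called. TSC13 had a Pol II change of 0.54 (adjusted p = 0.0511), beside 0.43 in input. At LEU2 the Pol II change was -0.08 against 0.44 in input, a difference of -0.52. Pol II had changes of 0.24 at TRP1 and 0.55 at YDR008C, below the 0.62 and 1.46 of input by 0.38 and 0.91. MHF1 had a Pol II change of 0.07 beside 0.56 in input. The differences between the Pol II and input changes were not tested.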

How the data were processed

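Fixed, sonicated chromatin was sequenced without immunoprecipitation, per the labels' protocols. The values the authors deposited are read coverage per gene, a signal that is not scaled to depth. Averaging over a gene and the placing of reads with several matches are not given in the sources used here. Tools listed in the submitters' processing notes are BWA 0.7.17-r1188, Trimmomatic 0.38 and deepTools 3.1.2, and the build is sacCer3. Read numbers are unknown, so no counting interval is given.

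Coverage was divided by unweighted trimmed-mean (TMM) factors (30% of log ratios and 5% of mean levels trimmed). All 6 input libraries entered a limma fit (version 3.58.1, R 4.3.3, mean-variance trend) of log2(scaled coverage + 1), the scale of the changes. The Pol II libraries were fitted the same way. The plan allowed for counts or coverage, and its coverage branch was used. RefSeq's gene table of the same assembly gave coordinates for the IDs it matched, 5976 of 6650 (674 did not match). Levels and chromosome medians use coverage over the library median. All called genes, their neighbours, the genotype markers, and the extreme members of each gene list, chromosome and window are named. The lists and the genes were chosen with earlier results of these data known.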

Additional observations from a re-analysis of the deposited data

How the results depend on the processing

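Of the 17 genes called between Pcf11-13 and WT, 9 were called under each of 17 alternatives (scaling, pseudocount 0.5 or 10, no filter or a coverage of at least 50, fewer libraries, no trend, a replicate block, centred chromosomes) and none of the 17 changed sign. Quantile normalization gave 10 calls for Pcf11-13 against WT (6 higher, 4 lower, all 10 among the 17) and 10 against Pcf11-DNL; LEU2 then had 0.38 (adjusted p = 0.152) and CUP1-1 -0.03. That setting gives all libraries the same highest values, where these genes lie. Leaving out 1 library gave 15 to 18 calls against WT, 16 to 19 against Pcf11-DNL and 0 to 0 for Pcf11-DNL minus WT. Of the markers that were not called, URA3 ran from -0.0461 (without Pcf11-13 replicate 1) to 0.0235 (without replicate 2) and ADE2 from -0.0105 (without WT replicate 2) to 0.0164 (without WT replicate 1), so neither kept its sign. The difference of chromosome XIII was 0.0322 without Pcf11-13 replicate 1 and 0.124 without replicate 2. Centring each chromosome, added after seeing the data, left 17 calls against WT, all shared.

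With the replicate block 16 genes were called against WT, all shared; NFS1 was lost (adjusted p = 0.0984). Over 6643 genes the replicate differences had r = -0.0659 between Pcf11-13 and WT, 0.125 between Pcf11-13 and Pcf11-DNL, and -0.0792 between Pcf11-DNL and WT. The labels name no shared batch, and the numbers were taken as names only. Relative to the mean gene of a library, levels were 2.02 in Pcf11-13 and 1.36 in WT at PCF11, 3.74 and 2.74 at LEU2, 1.44 and 0.934 at TRP1, and 4.24 and 7.07 at CUP1-2. The mean gene lay above the median gene in each library. Classes by GC content were not run, since no genome was used here. With 2 libraries per group and unknown read numbers, small changes of single genes may be missed.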
